A study of Homo sapiens with 2 samples.

Results

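A set of 10 genes of cytosolic nucleic acid sensing and of the inflammasome were followed in cells labelled MDA-MB-231 with and without ZEB1 knockdown. They were STING1, CGAS, IFI16, AIM2, PYCARD, CASP1, CASP4, TLR3, MYD88 and TBK1, found by Entrez Gene identifier among 16085 genes and loci listed in either library. Of the 10, 9 were listed in both libraries, and PYCARD was in neither. All 9 reached an FPKM (reads relative to the length of a gene and to the size of its library) of 1 in both libraries, so none was lost to the filter on low values.

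The series sequenced poly(A)-selected RNA from 1 library of cells carrying a control short hairpin RNA, labelled shCtrl, and 1 library of cells with a ZEB1 knockdown, labelled shZEB1. ZEB1 is a zinc-finger repressor known from the epithelial-to-mesenchymal transition, and the study's design text asks what links it to M2-like tumour macrophages. Both groups carry the cell line label MDA-MB-231, a line from a human triple-negative breast carcinoma. Melanocyte markers were abundant in both libraries, as given below. The sources used here give no hairpin sequence or vector, and do not say whether the cells were a pool or a clone. Neither group had a second library, so no test between the conditions was possible, no p-value was computed, and variation between cultures is unknown. Intervals below are 95% exact intervals, they cover counting error only, and they treat PCR copies of 1 molecule as separate reads.

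Cells sense misplaced DNA through several routes that end in interferon production or in inflammatory cell death. The enzyme cGAS, encoded by CGAS, binds double-stranded DNA and makes the messenger cyclic GMP-AMP, which STING (STING1) binds before it recruits the kinase TBK1, and TBK1 phosphorylates the transcription factor IRF3. AIM2 and IFI16 are related DNA-binding proteins of the PYHIN family. AIM2 is known to gather the adaptor ASC (PYCARD) and caspase-1 (CASP1) into an inflammasome, in which caspase-1 matures interleukin-1 beta and interleukin-18 and cuts gasdermin D. Several genes of the set are known to be inducible by interferon in other cells. Whether interferon bears on any of them in these cells was not tested.

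The libraries held 8740584 (shCtrl) and 8441491 (shZEB1) estimated reads. ZEB1 itself had 46 reads in shCtrl and 15 in shZEB1, a read ratio of 0.338 (0.175 to 0.616). The knockdown library thus had less of the targeted gene, which was scarce in shCtrl already. At 0.88 FPKM in shCtrl and 0.31 in shZEB1, ZEB1 stayed below the filter of 1 in both libraries. Marker genes of melanocytes were abundant in both libraries, and those of the labelled line were only partly found. All 7 melanocyte markers were measured, with a median FPKM of 175 in shCtrl and 128 in shZEB1. PMEL had 703 and 405 FPKM, DCT 225 and 123, TYRP1 223 and 228, and SOX10 175 and 171. TYR had 154 and 128, MLANA 115 and 97.45, and MITF 55.1 and 52.2. Of 10 markers of basal-type breast lines 8 were measured, with a median of 25.8 and 26.5. Of these, VIM had 1946 and 1695 FPKM, CD44 147 and 134, CAV1 46.6 and 43.96, KRT18 40.5 and 58.7, AXL 11.1 and 9.12, and PLAU 3.13 and 4.14. EGFR, KRT7 and F3 stayed below an FPKM of 2 in both libraries, and KRT19 was in neither. The label MDA-MB-231 is used below as the submitters gave it. In bulk RNA, fewer cells that express a gene and less of its RNA per cell cannot be told apart.

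AIM2 was the member that differed most between the libraries. In shCtrl 155 reads gave it an FPKM of 12.4, and in shZEB1 36 reads gave 2.98. That is 4.17-fold lower in FPKM, with a read ratio of 0.240 (0.162 to 0.347) and a log2 ratio of FPKM + 1 of -1.76. Genes with a log2 ratio of at least 1 or at most -1, and a read ratio whose interval excluded 1, were counted as higher or lower. By this rule AIM2 was the only member counted as lower, 1 of the 9 measured, and 0 members were counted as higher. Over all 12274 measured genes and loci the rule counted 1.61% as lower and 0.937% as higher.

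**Figure D1:**
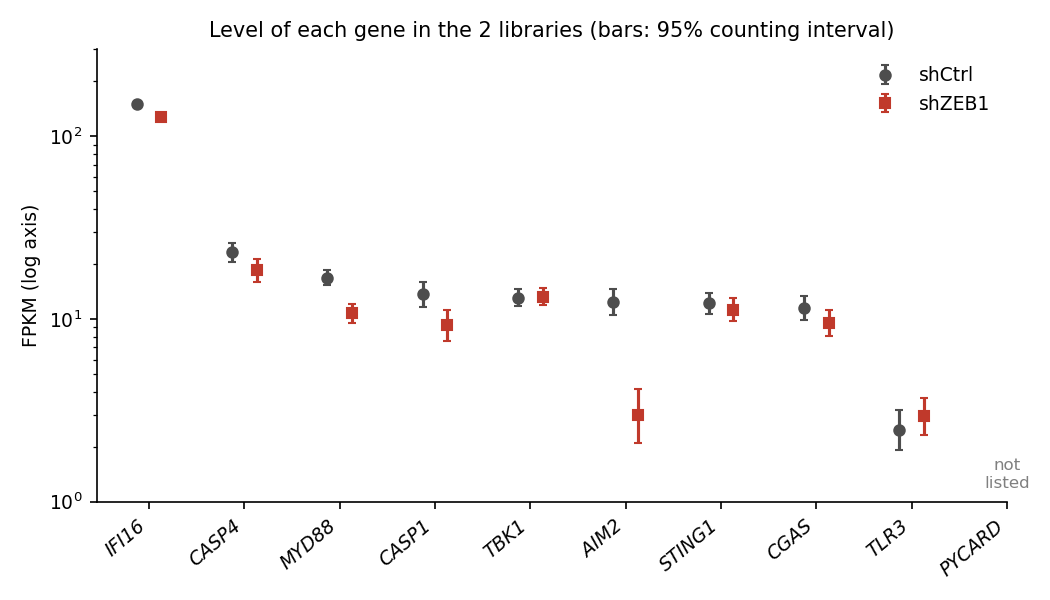
Level of each gene as FPKM on a log axis in the shCtrl library (circles) and the shZEB1 library (squares), with 95% exact Poisson counting intervals and genes ordered by their shCtrl level. IFI16 lies far above the others in both libraries, AIM2 goes from 12.4 to 2.98, and PYCARD was not listed.

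In shCtrl 62.9% of the listed genes had a lower FPKM than AIM2, and in shZEB1 34.2% did. Its shCtrl level lay between those of TBK1 and STING1 with overlapping intervals. In shZEB1 its level of 2.98 lay next to that of TLR3, at 2.95, and 3.09-fold below the next gene up, CASP1.

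AIM2 (Entrez Gene 9447) spans chr1:159055051-159147132 on GRCh38.p14, on the minus strand, and its 3′ end overlaps that of IFI16, which spans chr1:158999976-159055151 on the plus strand. Without strand, reads from this overlap cannot be told apart, and their number was not measured. In GENCODE 29 the exons of these genes do not overlap, and no stretch of 50 bases from the protein-coding transcripts of AIM2 occurs in another gene's transcripts. AIM2 is known to be made by myeloid and lymphoid cells as well. Of 10 myeloid markers, PTPRC, CD163 and TYROBP were in neither library, SPI1 was listed with 2 reads and in shCtrl only, and 3 reached an FPKM of 1. The summed FPKM of the 10 was 22.96 in shCtrl and 10.02 in shZEB1, of which CD68, a lysosomal protein that many cells make, held 18.7 and 4.12. CD68 was 4.53-fold lower in FPKM and was counted as lower by the rule above. The other measured markers were mixed. LYZ was higher in shZEB1, at 2.25 and 4.47 FPKM with a read ratio of 1.96 (1.23 to 3.19). FCER1G had 1.51 and 1.32 FPKM, in the direction of CD68 but with an interval that included 1. Of the markers below the filter, CSF1R had 3 reads in shCtrl and 1 in shZEB1, AIF1 had 1 and 0, and ITGAM had 0 and 3. The part of myeloid and lymphoid cells in the AIM2 values was not tested.

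The promoter of AIM2 is shown because this gene carried the largest difference, and that of MYD88 because it had the next lowest read ratio. Sequences are from RefSeq on GRCh38.p14 and cover the 250 bases before the start site in its promoter table, 5′ to 3′ on the strand of the gene. For AIM2 the table holds 1 start site, which lies inside the span given above, and starts farther upstream are not shown. Capitals mark the core of the interferon-stimulated response element, searched as TTTC, any 2 bases and TTTC again, on either strand. The AIM2 stretch is chr1:159076767-159077016 on the minus strand and the MYD88 stretch chr3:38138411-38138660 on the plus strand.
AIM2: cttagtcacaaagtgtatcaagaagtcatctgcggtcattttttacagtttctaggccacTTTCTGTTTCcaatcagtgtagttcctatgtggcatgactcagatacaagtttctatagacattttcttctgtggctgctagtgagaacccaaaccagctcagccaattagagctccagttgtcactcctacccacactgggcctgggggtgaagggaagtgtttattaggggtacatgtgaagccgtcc
MYD88: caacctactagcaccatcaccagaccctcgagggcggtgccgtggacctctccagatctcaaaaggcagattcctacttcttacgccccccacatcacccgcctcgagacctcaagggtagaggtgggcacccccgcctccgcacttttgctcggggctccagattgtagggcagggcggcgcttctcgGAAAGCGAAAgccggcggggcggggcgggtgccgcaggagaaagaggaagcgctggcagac

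IFI16, the other DNA sensor of the PYHIN family, was by far the most abundant of the genes. With 3790 reads its FPKM reached 151 in shCtrl, and with 3028 reads 127 in shZEB1. It held 67.9% of all reads of the 10 genes in shCtrl and 69.4% in shZEB1, and its level was 6.53-fold and 6.85-fold that of CASP4, the gene after it. The read ratio was 0.827 (0.788 to 0.868), so the difference of 16.1% in FPKM exceeded counting error but was far from 2-fold. Set against IFI16 within the same libraries, which needs no scaling, AIM2 was lower by a factor of 0.291 (0.196 to 0.422). The neighbouring family members PYHIN1 and MNDA were at 1 read in shZEB1 only and in neither library, respectively.

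The core of the cGAS and STING route differed little. CGAS, the enzyme that makes cyclic GMP-AMP, stood at an FPKM of 11.5 in shCtrl (175 reads) and 9.54 in shZEB1 (141 reads). STING1, its receptor in the endoplasmic reticulum, had 12.2 (224 reads) and 11.2 (189 reads). TBK1, the kinase recruited by STING, had 13.1 (348 reads) and 13.2 (341 reads). The read ratios were 0.834 (0.664 to 1.05), 0.874 (0.716 to 1.07) and 1.01 (0.871 to 1.18), and all 3 intervals included 1. These intervals leave room for a read ratio down to 0.664 for CGAS, so a modest difference was not detectable at this depth. CGAS and STING1 kept their proportion to each other, with a ratio of read ratios of 0.955 (0.704 to 1.30), an interval that also holds sizeable shifts.

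Limits of read assignment apply to this group. The gene length that the authors' quantification used for STING1 was 2151 bases in shCtrl and 2040 in shZEB1, which is why its FPKM ratio of 0.919 stands above its read ratio. In GENCODE 29, 14.7% of the exon bases of TBK1 overlap the antisense gene AC135279.3 and 4.33% of those of CGAS overlap DDX43 on the opposite strand, and without strand these reads cannot be told apart.

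The inflammatory caspases were both lower in shZEB1 by less than 2-fold. CASP1, the protease of the canonical inflammasome, stood at an FPKM of 13.6 in shCtrl (158 reads) and 9.22 in shZEB1 (106 reads), with a read ratio of 0.695 (0.538 to 0.894). CASP4, which binds bacterial lipopolysaccharide in the cytosol, had 23.2 (255 reads) and 18.5 (198 reads), with a read ratio of 0.804 (0.664 to 0.972), an interval that no longer excluded 1 with TPM (FPKM rescaled to the same sum in both libraries) or at 99%. Relative to CASP4, CASP1 had a ratio of 0.864 (0.627 to 1.19), so the caspases were not told apart by their changes. CASP5, a close relative of CASP4, had 1 read in shZEB1 and was not listed in shCtrl.

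CASP1 shares sequence with CARD16, an adjacent gene that encodes a short decoy with a similar CARD domain. CARD16 had 34 reads in shCtrl and 47 in shZEB1, a read ratio of 1.43 (0.901 to 2.29), and 13.1% of its stretches of 50 bases occur in CASP1 transcripts. Of those of CASP1, 5.78% occur in CARD16, and how the authors' quantification divided such reads was not tested. When the reads of both genes were added up, to 192 and 153, the read ratio was 0.825 (0.663 to 1.03) and included 1. This combination was chosen after the values were seen, and it adds reads that belong to CARD16 alone.

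PYCARD, which encodes the adaptor ASC between AIM2 and caspase-1, was listed in neither library. The files list only genes with estimated reads. A missing entry gives no length and does not tell a lack of reads from absence in the authors' reference. No FPKM limit was therefore set. In GENCODE 29, 59.7% of the exon bases of PYCARD overlap its antisense gene PYCARD-AS1, which was not listed in either library.

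The genes of the Toll-like receptor branch went different ways. TLR3, the endosomal receptor for double-stranded RNA, was the scarcest gene listed, at an FPKM of 2.48 in shCtrl (65 reads) and 2.95 in shZEB1 (75 reads), and its read ratio of 1.19 (0.846 to 1.69) included 1. MYD88, the adaptor of interleukin-1 receptors and of the Toll-like receptors other than TLR3, had 16.9 (414 reads) and 10.7 (252 reads). MYD88 was 1.57-fold lower in FPKM, with a read ratio of 0.630 (0.537 to 0.739) and a log2 ratio of -0.61, which misses the 2-fold rule. At 1.5-fold, AIM2 and MYD88 were both counted as lower and 0 members as higher, beside 5.41% and 4.97% of all measured genes and loci. Relative to TLR3 its ratio was 0.528 (0.359 to 0.775), and relative to TBK1 it was 0.621 (0.497 to 0.776). MYD88 shared no stretch of 50 bases with another gene.

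**Figure D2:**
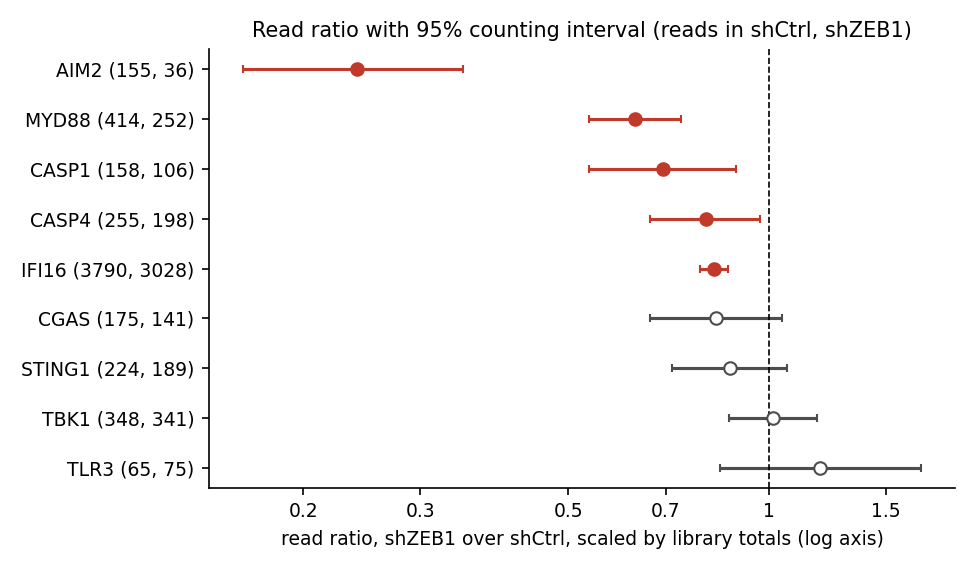
Read ratio of shZEB1 over shCtrl for the 9 listed genes, scaled by library totals, on a log axis with 95% exact binomial counting intervals; reads in shCtrl and shZEB1 stand beside each name, and filled points have an interval that excludes 1. AIM2 is at 0.240, MYD88, CASP1, CASP4 and IFI16 lie between 0.630 and 0.827, and the intervals of CGAS, STING1, TBK1 and TLR3 cross 1.

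Across the 9 measured genes, the interval lay below 1 for 5 and above 1 for 0. With TPM and with 99% intervals the count was 4, without CASP4. Of all measured genes and loci, 21.4% had an interval below 1 and 27.9% above it. The median log2 ratio of the 9 was -0.25, or -0.25 over 8 without AIM2, beside 0.02 over all measured genes and loci. Of all 36 pairs of the 9 genes, the interval of the ratio of read ratios excluded 1 for 16. AIM2 differed in this way from each of the 8 others, and 8 of the 28 pairs without AIM2 excluded 1, most often pairs with MYD88.

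**Figure D3:**
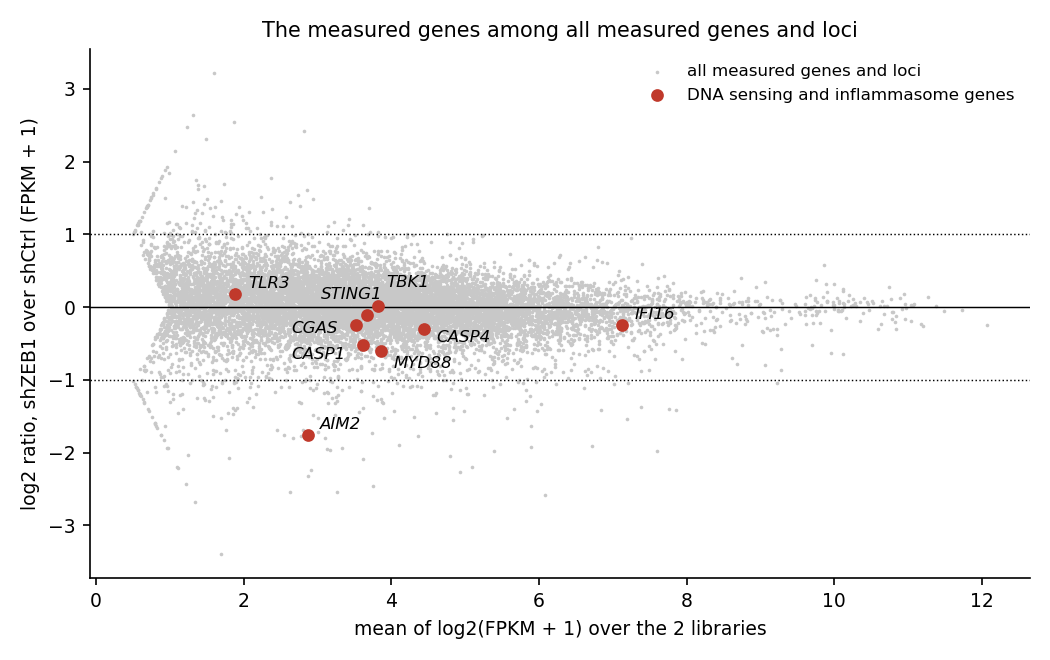
Log2 ratio of FPKM + 1 (shZEB1 over shCtrl) against the mean of log2(FPKM + 1) over both libraries, for 12274 measured genes and loci in grey and the 9 measured sensing and inflammasome genes in red; dotted lines mark log2 ratios of 1 and -1. AIM2, at -1.76, lies outside these lines, and the 8 others lie between -0.61 and 0.18.

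In shCtrl the levels ran in the order IFI16, CASP4, MYD88, CASP1, TBK1, AIM2, STING1, CGAS and TLR3. From MYD88 down to CGAS each gene's interval overlapped that of its neighbour, with FPKM from 16.9 to 11.5. Within this stretch the interval of MYD88 (15.3 to 18.6) lay above those of TBK1, AIM2, STING1 and CGAS, which reached at most 14.6, and the order of CASP1, TBK1, AIM2, STING1 and CGAS among themselves was not resolved. In shZEB1 the order was IFI16, CASP4, TBK1, STING1, MYD88, CGAS, CASP1, AIM2 and TLR3. There 5 of the 8 neighbouring pairs overlapped again, and gaps beyond counting error stood after IFI16, after CASP4 and between CASP1 and AIM2. The interval of TBK1 (11.9 to 14.7) also lay above those of CGAS and CASP1, which ended at 11.3 and 11.2. No difference in order between the libraries was tested.

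Promoter windows were at hand for 7 of the 10 genes, in 8 windows because IFI16 has 2 start sites in the table, and STING1, CGAS and CASP1 were not matched. Each window runs from 250 bases before to 50 after the start. The interferon-stimulated response element core was found in AIM2, MYD88 and TLR3, against 3.57% of 35116 promoters in the table. Counting the start site as 0, the matches began at -190 in AIM2, at -61 in MYD88 on the reverse strand and at -4 in TLR3. The TLR3 match is shown in its 30 bases, chr4:186069142-186069171 on the plus strand of GRCh38.p14, because this gene had the motif and was not lower in shZEB1.
TLR3: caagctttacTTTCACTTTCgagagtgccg

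The gamma-activated site core TTCNNNGAA occurred once in MYD88, overlapping the match shown above, and 2 times in TLR3, against 7.66% of promoters. The NF-kB core, searched as GGG, any 2 bases, TT, any base and CC (5.68% of promoters), and CAGGTG, an E-box of the kind ZEB1 is known to bind (20.6%), had no match in any of the 8 windows on either strand. No match says only that these letters are absent from these windows. Of the genes with the response element core, AIM2 had a read ratio of 0.240, MYD88 of 0.630 and TLR3 of 1.19. Of those without it, CASP4, IFI16 and TBK1 had 0.804, 0.827 and 1.01. STING1, CGAS and CASP1 had no window, and PYCARD was not listed. Whether the core bears on these differences was not tested.

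**Figure D4:**
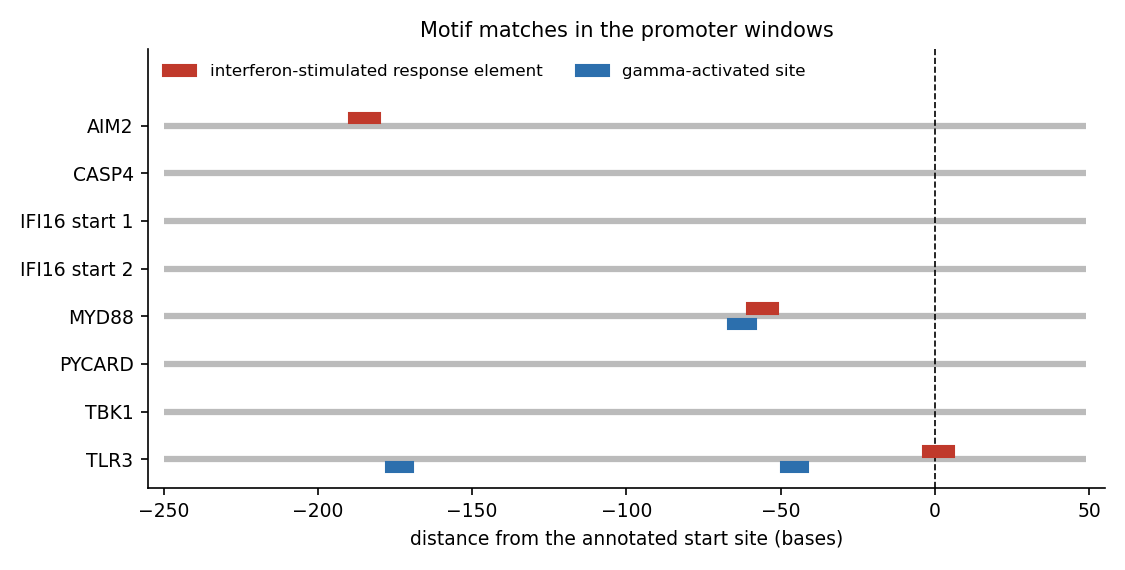
Motif matches in the 8 promoter windows, as distance in bases from the annotated start site (dashed line at 0); red boxes are interferon-stimulated response element cores and blue boxes gamma-activated site cores. The element lies at -190 in AIM2, at -61 in MYD88 and at -4 in TLR3, and the windows of CASP4, IFI16, PYCARD and TBK1 hold none of the 4 motifs.

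Other genes of the DNA sensing and STING route showed no common direction. Of 49 genes in this list, 43 were measured, 1 was counted as lower and 1 as higher, and the median log2 ratio was -0.0022, with 10 intervals below 1 and 16 above. The gene counted as lower was OPTN, an autophagy receptor that binds TBK1, at 19.4 and 8.68 FPKM (read ratio 0.446, 0.382 to 0.518). The gene counted as higher was ZDHHC11, an acyltransferase reported to act in this route, at 2.04 and 6.52 FPKM, and it is uncertain because 36.2% of its stretches of 50 bases also occur in its copy ZDHHC11B. Over all measured genes and loci, 1.61% were counted as lower and 0.937% as higher. Of their intervals, 21.4% lay below 1 and 27.9% above. The same shares stand beside the inflammasome and Toll-like receptor lists below.

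Of IRF3, IKBKE and TREX1, only IKBKE had an interval that excluded 1. IRF3, the transcription factor that TBK1 phosphorylates, had 50.1 and 49.6 FPKM, with a read ratio of 0.976 (0.875 to 1.09). IKBKE, the kinase most like TBK1, had 6.95 and 4.33 FPKM, with a read ratio of 0.624 (0.496 to 0.782). TREX1, the nuclease that clears cytosolic DNA, had 12.9 and 12.5 FPKM, and its interval included 1. IFNB1, the interferon gene at the end of the route, was in neither library. The 2 remaining genes with the largest differences were PRKDC, the catalytic subunit of the DNA-dependent protein kinase, at 48.8 and 74.5 FPKM, and ABCC1, an exporter of cyclic GMP-AMP, at 19.5 and 12.6.

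Of 48 other genes of inflammasomes and pyroptosis, 27 were measured, of which 2 met the rule as lower and 1 met it as higher. The median log2 ratio was 0.13, with 6 intervals below 1 and 11 above, so this list did not share the negative median of the 9 genes. NLRP1, a sensor that forms its own inflammasome, was counted as higher, at 0.95 FPKM in shCtrl (44 reads) and 3.64 in shZEB1 (159 reads). It was measured through its shZEB1 level alone and was left out when an FPKM of 1 was asked of both libraries, with 0 genes of the list then counted as higher. NEK7, a kinase that NLRP3 needs, was counted as lower, at 10.4 (371 reads) and 4.17 (144 reads). PANX1, a channel that releases ATP, was 2.03-fold lower in FPKM (21.2 and 10.4) and missed the rule at a log2 ratio of -0.96, but met it with a pseudocount of 0.1, with edgeR or DESeq2 factors and at 1.5-fold.

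The substrates of caspase-1 were scarce or little different. IL1B had 18 reads in shCtrl and 1 read in shZEB1, a read ratio of 0.0575 (0.00138 to 0.364), and was counted as lower. It was measured through its shCtrl level alone (1.43 FPKM, beside 0.08) and was left out when an FPKM of 1 was asked of both libraries. For IL18, with 8 reads in shCtrl and 4 in shZEB1, the interval ran from 0.114 to 1.93. GSDMD, which forms the pores of pyroptosis, had 42.3 and 39.5 FPKM, with a read ratio of 0.943 (0.841 to 1.06). NLRP3 was listed with 1 read, in shCtrl alone.

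Of 39 other genes of Toll-like receptor signalling, 25 were measured, 0 met the rule in either direction, and the median log2 ratio was 0.03. The interval lay below 1 for 2 and above 1 for 9. TLR6, a surface receptor, had 1.04 and 2.62 FPKM, and TIRAP, which bridges receptors to MYD88, had 1.75 and 3.81. The antisense gene AP001318.1 overlaps 12.5% of the exon bases of TIRAP. SLC15A4, a transporter of endolysosomes, had 23.4 and 15.6 FPKM, and TAB3, an adaptor of the kinase TAK1, 5.54 and 8.06. TICAM1, the adaptor of TLR3, had 7.37 and 6.10 FPKM, with an interval that included 1. For UNC93B1, which carries TLR3 to endosomes, 15.98 and 13.29 FPKM gave a read ratio of 0.834 (0.705 to 0.986), an interval that included 1 with TPM and at 99%.

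**Figure D5:**
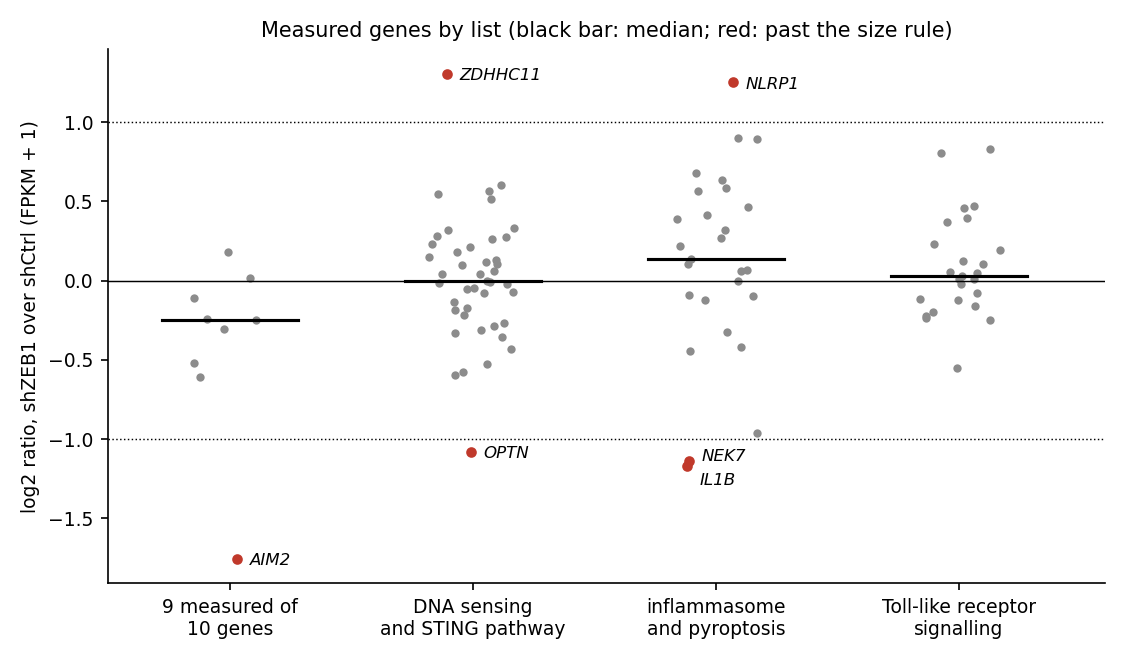
Log2 ratio of FPKM + 1 (shZEB1 over shCtrl) of every measured gene in 4 groups: the 9 measured sensing and inflammasome genes and 3 lists of other genes of the same routes; black bars are medians, red points passed the size rule and dotted lines mark 1 and -1. The median is -0.25 for the 9 genes and -0.0022, 0.13 and 0.03 for the lists.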

How the data were processed

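Poly(A)-selected RNA was sequenced in 1 shCtrl and 1 shZEB1 library. The submitters' processing notes name the genome hg38 and the tools RSEM 1.2.8, HISAT2 2.1.0, Bowtie2 2.2.5 and DESeq, without order, settings or strand. Per the file headers, the authors deposited an expected count and an FPKM value per gene and library. A gene missing from a file was entered at 0. Symbols, coordinates and promoters came from RefSeq (GRCh38.p14), overlaps and shared stretches of 50 bases from GENCODE 29.

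Measured genes had an FPKM of at least 1 in shCtrl, shZEB1 or both. The measure was the log2 ratio of FPKM + 1, which understates differences of low genes. Read ratios used expected counts rounded to whole numbers and scaled by library totals, with exact conditional binomial (Clopper-Pearson) intervals. FPKM intervals are exact Poisson intervals. The ratio of 2 genes' read ratios has an exact conditional interval. With 1 library per group no dispersion can be estimated, so edgeR 4.0.16 and DESeq2 1.42.0 gave scaling factors only. The rule for counting genes was tested on a simulated pair of libraries that held counting error only.

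The genes and lists were chosen with earlier results of these data known. Named were the 10 genes, ZEB1, 15 direct partners and, of each list, the 4 measured genes with the largest absolute log2 ratio; marker genes are named as examples. Computation used Python 3.11.15, SciPy 1.17.1, pandas 2.3.3 and R 4.3.3.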

Additional observations from a re-analysis of the deposited data

How the results depend on the processing

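AIM2 was counted as lower, and 0 of the 10 genes as higher, under all 10 alternatives, and at 1.5-fold MYD88 joined AIM2, making 2. The log2 ratio of AIM2 ranged from -2.10 to -1.77 where pseudocount or scaling changed, and only TBK1 changed sign (-0.03 to 0.07). The median of the 9 genes was -0.33 with edgeR and -0.32 with DESeq2 factors, which use reads in place of FPKM. In the DNA sensing list, 2 were lower and 2 higher at 1.5-fold. In the inflammasome list, 1 was lower with FPKM of at least 5, or of at least 1 in both libraries, and 0 were higher under these filters, which remove IL1B and NLRP1. There 3 were lower with a pseudocount of 0.1, either factor or 1.5-fold, PANX1 being the addition. With a pseudocount of 0.1 or either factor 3 were higher, GSDMB and IL18BP joining NLRP1. With TPM 2 were higher, IL18BP and NLRP1, and 6 at 1.5-fold, among them CASP8, NAIP and TXNIP. Over all measured genes and loci the higher calls rose too, from 115 to 310 with a pseudocount of 0.1, 307 with edgeR and 308 with DESeq2 factors, 238 with TPM and 610 at 1.5-fold, and the lower calls from 198 to 294, 333, 332, 222 and 664. The stricter filters lowered the calls over all genes and loci as well. With FPKM of at least 5, 134 of 9157 were lower and 44 higher. With at least 1 in both libraries, 142 of 11582 were lower and 52 higher. In the Toll-like receptor list, 2 were higher with a pseudocount of 0.1, either factor or 1.5-fold (TLR6 and TIRAP), and 1 with TPM (TLR6). With either factor 0.5 reads were added in place of 1 FPKM, and both DESeq2 factors were 1. TPM raised the values under the same pseudocount of 1. How far each of these changes moved the counts was not tested. With CASP1 and CARD16 reads together (added after seeing the data), 4 of the genes had an interval below 1, and 4 had one with TPM and with 99% intervals, where CASP4 dropped out. No paired analysis was possible because each group has 1 library. Counts as low as those of IL1B and IL18 leave wide intervals.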

Other observations

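The other measured inflammasome genes whose interval excluded 1, in either direction, are given as values only and were chosen after their values were seen. IL1A also had an interval that excluded 1 (0 to 0.607), from 8 reads in shCtrl and 0 in shZEB1. At 0.32 FPKM in shCtrl it was not measured. Below 1 were GSDME, a pore-forming gasdermin, with 4.85 FPKM in shCtrl and 3.30 in shZEB1 (read ratio 0.683, 0.487 to 0.951), and SERPINB1, an inhibitor of neutrophil proteases, with 18.2 and 14.3 (0.788, 0.679 to 0.914). Above 1, TXNIP, a thioredoxin-binding protein reported to act on NLRP3, had 24.2 FPKM in shCtrl and 45.96 in shZEB1, a read ratio of 1.92 (1.74 to 2.13). CASP8, the caspase of death receptors, had 11.2 and 17.3 (1.52, 1.31 to 1.78). NLRP2 had 3.62 and 5.83 FPKM, NLRP12 had 1.16 and 1.98, and NAIP, a sensor of bacterial flagellin, had 1.29 and 2.66. IL18BP, a secreted inhibitor of interleukin-18, had 16 and 40 reads (0.75 and 2.25 FPKM), and GSDMB had 9 and 21 (0.66 and 1.58 FPKM). Both were measured through their shZEB1 level alone and were left out when an FPKM of 1 was asked of both libraries. SERPINB9, an inhibitor of granzyme B, had 4.86 and 6.31 FPKM, and the chaperone HSP90AB1 had 1034 and 1202. The guanylate-binding proteins, interferon-induced GTPases, did not share a direction: GBP1 had 72 and 46 reads and GBP3 had 115 and 154, with intervals that excluded 1 on opposite sides, while those of GBP2, GBP4 and GBP5 included 1. With 99% intervals those of GBP1, GSDME, GSDMB and SERPINB9 included 1 as well, and with TPM that of GBP1 did.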
